A study of Mus musculus with 24 samples.

Results

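The 8 genes described here handle iron in the absorbing epithelium of the small intestine: *Slc11a2*, *Cybrd1*, *Slc40a1*, *Heph*, *Tfrc*, *Fth1*, *Ftl1* and *Hmox1*. They were taken by gene symbol from the deposited count and FPKM tables, which list 56691 genes, 34471 of them with a count in some library. All 8 were found in both tables and all 8 passed the filter on low counts in every comparison. RNA came from the distal jejunum of 24 mice aged 9 to 11 weeks, 12 male and 12 female, with 1 library per mouse and 3 mice in each of 8 groups. In each sex, wild type mice and *Ptk6*-/- mice, whose germline disruption of the gene for protein tyrosine kinase 6 was crossed onto the C57BL/6 background, received either regular water (controls) or 100 mM succinate in their water for 7 days. The samples answer how genotype, succinate and sex relate to the RNA level of each gene. *Ptk6* is disrupted in every cell of the body, and the RNA is that of a whole segment of gut, so that fewer cells of a type and less RNA per cell cannot be told apart in any value below.

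Dietary ferric iron is reduced at the brush border by reductases such as duodenal cytochrome b (CYBRD1) and enters the enterocyte through the divalent metal transporter DMT1 (SLC11A2). It then either rests in ferritin, a shell built from heavy (FTH1) and light (FTL1) chains, or leaves across the basolateral membrane through ferroportin (SLC40A1), the known iron exporter of mammals, with hephaestin (HEPH) oxidising it for loading onto transferrin. The transferrin receptor (TFRC) brings iron back from the blood side, mainly in dividing crypt cells, and heme oxygenase 1 (HMOX1) frees iron from heme. Absorption is strongest in the duodenum and weaker further along, so the distal jejunum is not the main site of uptake. Iron-regulatory proteins bind a hairpin, the iron-responsive element, in several of these mRNAs: in a 5′ UTR they block translation when iron is low, and in the 3′ UTR of *Tfrc* they protect the mRNA. This control of ferritin and ferroportin acts on protein synthesis, and RNA counts do not measure it.

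The hairpins are shown because they are the sites through which iron-regulatory proteins are known to bind these mRNAs. The GENCODE vM21 transcripts (build GRCm38) were searched, on the transcript strand, for a C, 5 bases, CAGTGN and 5 bases, where the 5 bases on either side of CAGTGN could pair. These letters lie in a 5′ UTR of 31 of 21901 coding genes (0.142%) and in a 3′ UTR of 129 (0.589%), and 4 of the 8 genes hold them. Capitals mark the bulged C and the CAGTGN loop. The *Slc40a1* site lies in its 5′ UTR, on the minus strand at chr1:45925465-45925493 of GRCm38, as do those of *Fth1*, on the plus strand at chr19:9982732-9982760, and *Ftl1*, on the minus strand at chr7:45459779-45459807. *Tfrc* holds 4 sites in its 3′ UTR, on the plus strand at chr16:32631219-32631247, chr16:32631598-32631626, chr16:32631663-32631691 and chr16:32631710-32631738, given in that order.
Slc40a1 5′ UTR: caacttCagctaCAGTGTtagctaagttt
Fth1 5′ UTR: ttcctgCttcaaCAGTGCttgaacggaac
Ftl1 5′ UTR: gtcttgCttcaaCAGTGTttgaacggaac
Tfrc 3′ UTR: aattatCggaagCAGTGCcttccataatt
Tfrc 3′ UTR: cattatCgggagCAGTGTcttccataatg
Tfrc 3′ UTR: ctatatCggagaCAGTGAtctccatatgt
Tfrc 3′ UTR: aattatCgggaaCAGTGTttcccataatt
No match was found in *Slc11a2*, *Cybrd1*, *Heph* or *Hmox1*, which says only that these letters, paired in this way, are not in the annotated UTRs of their transcripts. An isoform of *Slc11a2* is known to carry an iron-responsive element of a less regular form in its 3′ UTR, which this search does not cover.

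Total counts ran from 8080321 to 52824743 per library (median 43017686.5), and *Ptk6* had 284 to 2405 counts in the 12 wild type libraries and 7 to 61 in the 12 *Ptk6*-/- libraries. No pair of libraries held identical values. The enterocyte markers (9 genes, among them *Alpi*, *Sis* and *Vil1*) had counts in every library. A few libraries stood apart. *Rn18s-rs5*, an 18S ribosomal RNA gene, took 51.2% of the counts of wild type male control replicate 1 and 29.7% of *Ptk6*-/- male succinate replicate 1, which was also the smallest library. In wild type female succinate replicate 2 the 6 heart muscle markers summed to 20382 CPM, which is the count scaled to a common library total, against at most 170 in any other library. The 4 lung markers summed to 5.88 to 16.5 CPM in the 6 *Ptk6*-/- female libraries and to 14.3 in 1 wild type female succinate library, and to at most 0.717 in the rest. Libraries also differed in how strongly long genes were represented, with slopes of log2 CPM on relative log2 gene length between -0.14 and 0.15.

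The 2 ferritin chains were by far the most abundant RNAs of the group and the ferric reductase the least. By FPKM, which is per length and allows genes to be compared, the median over the 24 libraries was 389 for *Ftl1* (range 168 to 1021) and 267 for *Fth1* (109 to 573), placing them above 99.7% and 99.6% of the genes in the FPKM table. *Heph* followed at 17.7 (1.86 to 29.1), *Tfrc* at 6.39 (1.35 to 9.94), *Slc11a2* at 4.47 (0.727 to 7.28), *Hmox1* at 1.85 (0.165 to 3.79) and *Slc40a1* at 1.15 (0.159 to 1.99). FPKM has no TMM scaling, and the lower end of each range came from a library rich in 18S. *Cybrd1* had a median of 0.464 FPKM (up to 1.07), which is 12 to 356 counts in 23 of the libraries. In *Ptk6*-/- male succinate replicate 1 it had no count, which in a library of 8080321 counts allows up to 3. The ferric reductase and the exporter, both hallmarks of duodenal absorption, were thus the scarcest of the 8 RNAs in this segment. In TMM-normalised CPM, which compares libraries for 1 gene, the highest library exceeded the lowest by 7.67-fold for *Heph*, 6.36-fold for *Hmox1*, 6.27-fold for *Ftl1*, 3.99-fold for *Slc11a2*, 3.98-fold for *Slc40a1*, 3.89-fold for *Fth1* and 1.97-fold for *Tfrc*. When the 8 groups were put in order of their mean CPM, every group's libraries overlapped those of its neighbour, for all 8 genes.

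**Figure D1:**
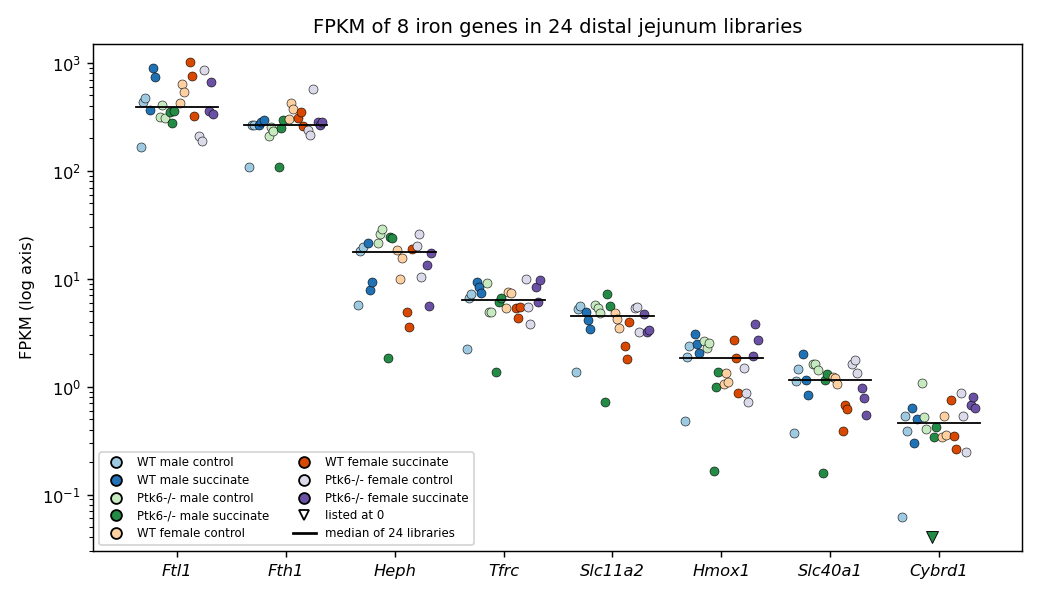
FPKM (log axis) of the 8 genes, ordered by their median; each point is 1 of 24 libraries, coloured by group, the line is the median and the triangle is the library in which *Cybrd1* is listed at 0. The ferritin genes lie between 109 and 1021 FPKM and *Cybrd1* at or under 1.07. The lowest point of every gene except *Ftl1* is *Ptk6*-/- male succinate replicate 1, the smallest library, in which 18S took 29.7% of the counts. FPKM has no TMM scaling, and by TMM-normalised CPM that library was the highest of its group for *Fth1* (1640).

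A gene was called when edgeR's quasi-likelihood test gave a Benjamini-Hochberg adjusted p under 0.05, over all genes tested, with a fold change of at least 2. No member was called in any of the 12 planned comparisons, and the share of all genes called was small in each. For *Ptk6*-/- against wild type controls it was 0.739% of 19218 genes in males and 0.0158% of 19035 in females. For succinate against control it was 0% in wild type males, in *Ptk6*-/- males and in wild type females, and 0.0879% of 19334 genes in *Ptk6*-/- females. It was 0% for the interaction of genotype with succinate, tested in males and in females, and for that of sex with genotype in controls. In the averages over all 24 libraries it was 0.360% of 21694 genes for sex, 0.0184% for genotype and 0.728% for succinate. At an unadjusted p under 0.05, 2 members passed for the succinate average, where 16.1% of all genes did, and 2 for succinate in *Ptk6*-/- females, where 10.7% did. There was 1 member for genotype in control males (25.2% of all genes), for succinate in *Ptk6*-/- males (7.75%) and wild type females (7.77%), for the interaction of genotype with succinate in males (3.80%) and for the sex average (15.3%). No member passed for genotype in control females (11.1%), succinate in wild type males (4.07%), the interaction of genotype with succinate in females (6.46%), that of sex with genotype (4.64%) or the genotype average (13.4%). In the added contrasts of the succinate difference between the sexes, 2 members passed over both genotypes (8.27% of all genes) and 1 in *Ptk6*-/- mice (7.12%). The medians over the 8 members lay between -0.36 and 0.28 on the log2 scale in the 12 planned comparisons and were 0.45 and 0.51 in the added contrasts.

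Groups whose 3 libraries did not overlap on the CPM scale were common across the genome, and the members were no exception. Between genotypes, 1 member did not overlap in control males, where 31.4% of all genes did not, and 1 in control females, where 18.9% did not. After succinate, 1 member did not overlap in wild type males (8.77% of all genes), 3 in *Ptk6*-/- males (23.0%), 1 in wild type females (13.3%) and 2 in *Ptk6*-/- females (21.2%). The exporter *Slc40a1* accounted for 5 of these 9 and *Hmox1* for 2. *Tfrc* in wild type males and *Fth1* in *Ptk6*-/- males were the others.

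**Figure D2:**
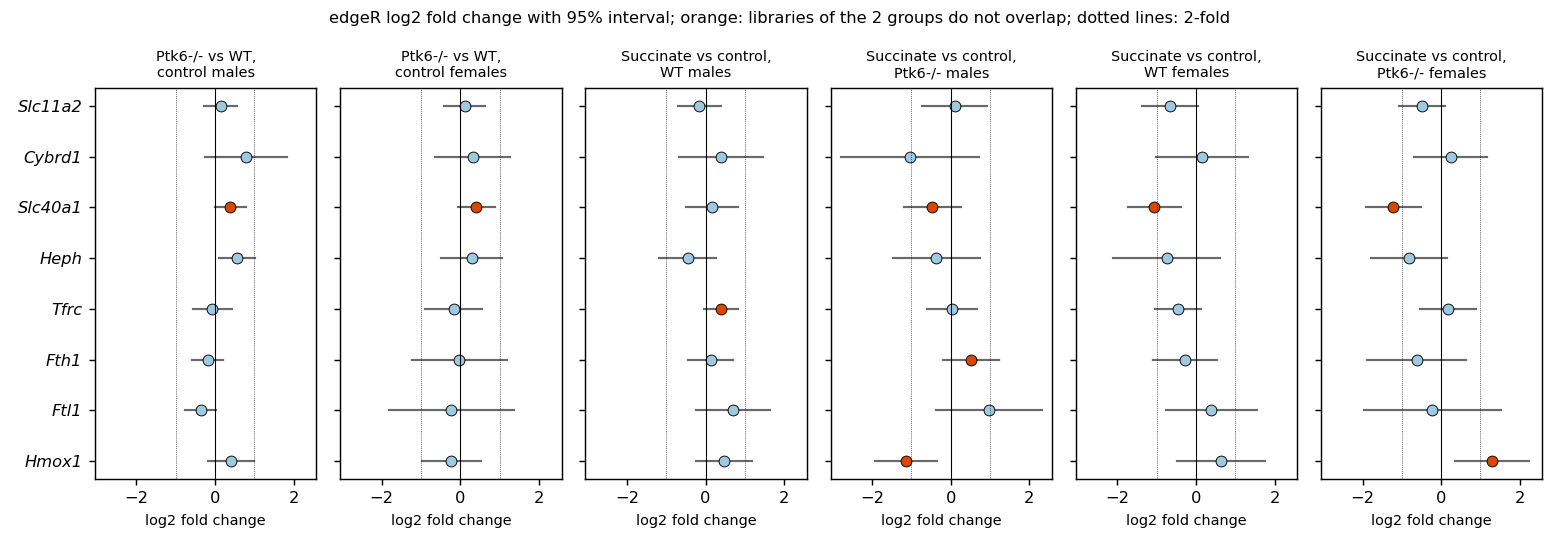
log2 fold change (horizontal axis) of each member in the 6 comparisons of 2 groups, from edgeR, with its 95% interval; orange points mark members whose libraries do not overlap between the groups and dotted lines mark 2-fold. The *Slc40a1* intervals lie below 0 after succinate in both female genotypes, and those of *Hmox1* lie on opposite sides of 0 in *Ptk6*-/- males and females.

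*Slc40a1*, encoding ferroportin (ENSMUSG00000025993, minus strand of chromosome 1, at 45947228 to 45965683 of GRCm39), was the member with the most comparisons without overlap. Its RNA was lower after succinate in females of both genotypes, with neither difference past the adjusted threshold by edgeR. Wild type female controls had 15.2, 15.4 and 13.2 CPM (mean 14.6 ± 1.19 SD, n = 3), and wild type females given succinate 5.02, 8.69 and 7.11 (6.94 ± 1.84). All 3 treated libraries were below all 3 controls, and the log2 difference was -1.06 (SE 0.29, 95% interval -1.73 to -0.39, edgeR unadjusted p = 0.00669, adjusted p = 0.55). Without treated replicate 2, the library with the heart markers, it was -1.24 (edgeR adjusted p = 0.753). In *Ptk6*-/- females the controls had 17.2, 19.97 and 19.7 CPM (19.0 ± 1.53) and the treated mice 10.3, 9.35 and 5.39 (8.33 ± 2.59). Here too the groups did not overlap, with a log2 difference of -1.21 (SE 0.30, interval -1.91 to -0.52, edgeR unadjusted p = 0.00404, adjusted p = 0.31). DESeq2 called this difference (-1.20, adjusted p = 0.0305), as 1 of 436 genes that it called here, against 17 by edgeR. The other alternatives and left-out libraries gave -1.38 to -0.54 with adjusted p of 0.0708 to 0.881.

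In males the exporter behaved less uniformly. *Ptk6*-/- male controls lay close together at 16.7, 18.1 and 17.4 CPM, and the treated *Ptk6*-/- males had 6.31, 14.5 and 15.8. They did not overlap, but the lowest value belongs to the smallest library, in which *Slc40a1* had 23 counts, and the log2 difference was -0.46 (SE 0.31, edgeR adjusted p = 0.644). Wild type males overlapped, with 9.87, 12.9 and 16.7 CPM in controls and 19.5, 14.6 and 10.4 after succinate (0.16, SE 0.29, edgeR adjusted p = 0.958). Averaged over the 4 pairs of groups, the succinate difference was -0.64 (SE 0.16, interval -0.97 to -0.31, unadjusted p = 0.000604), and its edgeR adjusted p of 0.0527 was just over the threshold. The adjusted p was 0.0371 without the 3 libraries that stood apart by 18S, total count or heart markers, 0.0421 with DESeq2's size factors, 0.00322 with DESeq2 and 0.00167 with voom, with differences of -0.67 to -0.62, under 2-fold in each. It was 0.0632 with an offset for gene length and 0.371 with limma on log2(FPKM + 1). Leaving out 1 library moved it between 0.0234 and 0.119, and it was under 0.05 without each of 5 libraries: wild type male control replicate 1, wild type male succinate replicate 1, *Ptk6*-/- male succinate replicate 1, wild type female succinate replicate 3 and *Ptk6*-/- female succinate replicate 1 gave 0.0485, 0.0234, 0.049, 0.0278 and 0.0386.

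The difference between the sexes was tested with a contrast chosen after these values were seen. The succinate difference of *Slc40a1*, averaged over genotypes, was 0.98 higher in males than in females on the log2 scale (SE 0.32, interval 0.32 to 1.64, edgeR unadjusted p = 0.00579, adjusted p = 0.319), in a contrast where 0.0738% of all genes were called. The genotype by succinate interaction of *Slc40a1* was -0.12 (SE 0.40, edgeR adjusted p = 0.981) in females and -0.61 (SE 0.45, edgeR adjusted p = 0.993) in males, with intervals of -0.99 to 0.75 and -1.58 to 0.36. *Slc40a1* was also the member that did not overlap between genotypes in the controls of either sex. Control *Ptk6*-/- males (16.7 to 18.1 CPM) were above control wild type males (9.87 to 16.7 CPM), by 0.38 (SE 0.17, edgeR adjusted p = 0.214), although the nearest libraries were equal to 3 digits. Without wild type replicate 1, the lowest library and the one with the most 18S, it was 0.26 (edgeR adjusted p = 0.341). With the length offset the male value was 0.13 (adjusted p = 0.75). Control *Ptk6*-/- females were above control wild type females by 0.41 (SE 0.20, edgeR adjusted p = 0.483). Between the control males, markers of the proximal small intestine (487 to 548 CPM in wild type and 568 to 731 in *Ptk6*-/- mice) and of erythrocytes (100.2 to 127 and 63.5 to 91.3) did not overlap either, and between the control females heart markers (30.3 to 52.8 and 9.90 to 19.3) and lung markers (0 to 0.331 and 10.4 to 16.5) did not. Their part in the genotype values was not tested.

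Ferroportin is made by enterocytes and by macrophages, and marker levels of both are given for these groups. The 9 enterocyte markers summed to 45044 to 51279 CPM in wild type female controls and 26651 to 35816 after succinate. In *Ptk6*-/- females they summed to 21021 to 55604 in controls and 16964 to 20145 after succinate, so that in either genotype the sums of the treated females were below all controls, as *Slc40a1* was. Gene by gene, the median log2 difference of the 9 was -0.63 in wild type and -0.90 in *Ptk6*-/- females. At an edgeR unadjusted p under 0.05, 1 and 2 of them were lower there and 0 higher. In the succinate average 5 were lower and 2 higher, so the list was mixed. The 10 macrophage markers overlapped, at 349 to 528 and 346 to 535 CPM in wild type females and 302 to 929 and 217 to 619 in *Ptk6*-/- females. The 5 smooth muscle markers summed to 2993 to 3791 and 3609 to 7020 CPM in wild type females and to 1944 to 4299 and 3431 to 4711 in *Ptk6*-/- females. The 3 markers of the distal small intestine were lower without overlap, at 1553 to 2909 and 300.3 to 1419 CPM in wild type females and 680 to 2246 and 233 to 541 in *Ptk6*-/- females. The part of cell makeup and position in the *Slc40a1* values was not tested.

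*Hmox1*, the inducible heme oxygenase (ENSMUSG00000005413, plus strand of chromosome 8, at 75820249 to 75827217 of GRCm39), was lower after succinate in *Ptk6*-/- males and higher in *Ptk6*-/- females, neither past the adjusted threshold. *Ptk6*-/- male controls had 5.32, 4.98 and 5.97 CPM (mean 5.42 ± 0.504 SD, n = 3) and treated *Ptk6*-/- males 1.37, 2.45 and 3.17 (2.33 ± 0.906). All treated libraries were below all controls, with a log2 difference of -1.13 (SE 0.34, interval -1.93 to -0.34, edgeR unadjusted p = 0.0116, adjusted p = 0.6). The lowest value rests on 5 counts in the smallest library, and without it the difference was -0.97 (edgeR adjusted p = 0.441). *Ptk6*-/- female controls had 3.09, 1.95 and 2.11 CPM (2.39 ± 0.619) and treated *Ptk6*-/- females 3.97, 8.72 and 5.21 (5.97 ± 2.46). All treated libraries were above all controls here, with a log2 difference of 1.296 (SE 0.40, interval 0.36 to 2.23, edgeR unadjusted p = 0.0128, adjusted p = 0.398).

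In wild type mice the *Hmox1* groups overlapped in both sexes. Male controls had 2.51, 4.12 and 5.39 CPM against 5.85, 6.05 and 4.99 after succinate (0.48, SE 0.31, edgeR adjusted p = 0.947), or 0.27 without control replicate 1, the library with the most 18S. Female controls had 2.58, 3.35 and 2.69 CPM against 6.75, 4.57 and 1.93 (0.64, SE 0.48, edgeR adjusted p = 0.773), or 0.18 without treated replicate 1 and 1.02 without treated replicate 3. The succinate difference was positive in 3 of the 4 sex and genotype strata and negative in *Ptk6*-/- males. The genotype by succinate interaction in males was -1.60 (SE 0.46, interval -2.61 to -0.59, edgeR unadjusted p = 0.00474, adjusted p = 0.992) and that in females 0.68 (SE 0.63, edgeR adjusted p = 0.878). A contrast of the succinate difference in *Ptk6*-/- males with that in *Ptk6*-/- females, added after the values were seen, was -2.44 (SE 0.54, interval -3.61 to -1.26, edgeR unadjusted p = 0.000649, adjusted p = 0.283), where 0% of 20471 genes were called. *Hmox1* ranked 46 among them by p. DESeq2 called it (-2.39, adjusted p = 0.00452), as 1 of 180 genes that it called in this contrast. The other alternatives and left-out libraries gave -2.70 to -1.77 with adjusted p of 0.0855 to 0.736.

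Macrophages that recycle red cells express *Hmox1* strongly, and their markers overlapped between control and succinate in *Ptk6*-/- males (303 to 520 and 262 to 459 CPM). The 5 erythrocyte markers, a source of heme, summed to 63.5 to 91.3 CPM in *Ptk6*-/- male controls and 90.2 to 950 after succinate, the highest value being that of the smallest library. In *Ptk6*-/- females they summed to 36.6 to 241 and 17.6 to 77.8 CPM, which overlap. Heart markers were higher there after succinate without overlap (9.90 to 19.3 and 23.3 to 47.5 CPM), and lung markers (10.4 to 16.5 and 5.88 to 9.92) were lower, as were the enterocyte and distal markers given above. In the same comparison of *Ptk6*-/- males the sums of other markers were higher after succinate without overlap: enterocyte markers at 20148 to 31312 and 31696 to 53629 CPM, smooth muscle markers at 1622 to 2503 and 2512 to 2646, and heart muscle markers at 8.71 to 24.1 and 30.1 to 170. A sum follows its most abundant genes. Gene by gene, the median log2 difference of the 9 enterocyte markers was -0.17, and 0 were higher at an edgeR unadjusted p under 0.05. The part of these markers in the *Hmox1* values was not tested.

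**Figure D3:**
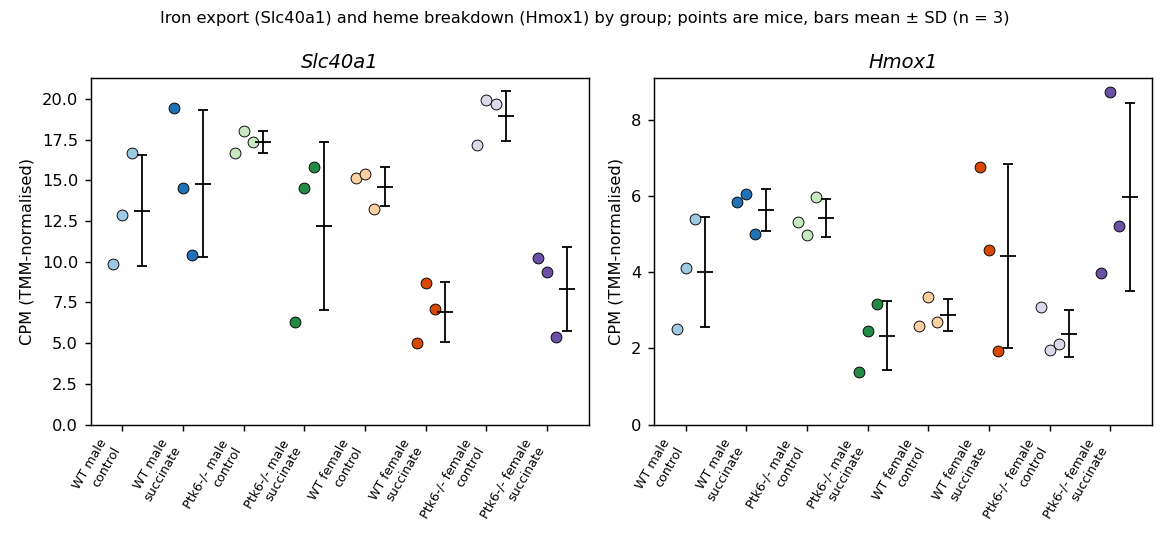
CPM of *Slc40a1* and *Hmox1* in the 8 groups; points are the 3 libraries of a group and bars the mean ± SD. *Slc40a1* is lower after succinate in both female genotypes, and *Hmox1* is lower in *Ptk6*-/- males (1.37 to 3.17 against 4.98 to 5.97) and higher in *Ptk6*-/- females (3.97 to 8.72 against 1.95 to 3.09).

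*Slc11a2*, the apical iron importer (ENSMUSG00000023030, minus strand of chromosome 15, at 100285779 to 100321973 of GRCm39), was steady in controls, at 24.996 to 45.2 CPM in the 12 control libraries. Its largest succinate difference was in wild type females, where 41.8, 39.0 and 30.7 CPM in controls stood against 21.5, 16.3 and 32.2. These overlapped through treated replicate 3, and the log2 difference was -0.65 (SE 0.31, edgeR adjusted p = 0.659), or -0.44 without treated replicate 2, which held the heart markers. In *Ptk6*-/- females 39.5, 44.0 and 34.0 CPM stood against 34.8, 26.9 and 23.3 (-0.49, SE 0.25, edgeR adjusted p = 0.513). The succinate average was -0.30 (SE 0.16, interval -0.63 to 0.04, edgeR adjusted p = 0.358), and in *Ptk6*-/- males the treated libraries ranged from 20.02 to 64.9 CPM around controls of 41.4 to 42.4.

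*Cybrd1*, the ferric reductase (ENSMUSG00000027015, plus strand of chromosome 2, at 70948267 to 70973270 of GRCm39), overlapped between groups in every comparison. Its widest difference between 2 groups was -1.04 (SE 0.75, interval -2.80 to 0.71, edgeR adjusted p = 0.662) after succinate in *Ptk6*-/- males, where controls had 6.53, 3.44 and 2.92 CPM and treated mice 0, 2.56 and 3.02. It was -0.66 without the treated library at 0, which is the smallest, and -0.61 without control replicate 1. In each of the 4 succinate comparisons the 95% interval of *Cybrd1* included a 2-fold change in at least 1 direction, so that such a change was not excluded by the spread between these mice.

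*Heph*, the membrane-bound ferroxidase that works with ferroportin (ENSMUSG00000031209, plus strand of the X chromosome, at 95498965 to 95618091 of GRCm39), had negative succinate differences in all 4 strata, each with overlap. That in *Ptk6*-/- males was -0.37 (SE 0.47, edgeR adjusted p = 0.788) and became 0.02 without the smallest library. Wild type females had 195, 109 and 166 CPM in controls and 53.1, 39.1 and 184 after succinate (-0.74, SE 0.58, edgeR adjusted p = 0.786). Treated replicates 1 and 2, the latter with the heart markers, were below every control and replicate 3 was among them. The difference was -0.37 (edgeR adjusted p = 1) without replicate 2, and without replicate 3 edgeR called the difference (-1.72, adjusted p = 0.0437). *Ptk6*-/- females had 178, 249 and 131 CPM in controls and 121, 56.4 and 145 after succinate (-0.81, SE 0.42, edgeR adjusted p = 0.514). Wild type males had 125, 173 and 194 CPM against 178, 84.6 and 98.7 (-0.45, SE 0.32, edgeR adjusted p = 0.947). Without treated replicate 1 this difference was -0.88 (edgeR adjusted p = 0.0264), and voom gave -0.81 (adjusted p = 0.013), both under 2-fold. The succinate average was -0.59 (SE 0.27, interval -1.15 to -0.04, edgeR unadjusted p = 0.0373, adjusted p = 0.282). The voom fit gave it an adjusted p of 0.00508 (-0.77), leaving out wild type female succinate replicate 3 gave -0.84 (edgeR adjusted p = 0.0374), and without the 3 libraries that stood apart the value was -0.43 (edgeR adjusted p = 0.479). Between control males, *Ptk6*-/- mice had 189, 244 and 300 CPM and wild type mice the values above. *Heph* was 0.56 higher in the former (SE 0.20, interval 0.11 to 1.01, edgeR adjusted p = 0.126), and 0.35 higher with the length offset (adjusted p = 0.418). DESeq2 and voom gave this difference adjusted p of 0.0278 and 0.0182, under 2-fold. The pseudogene *Rpl17-ps8* lies within *Heph* on the same strand with up to 3050 counts, and how the counting divided reads between them is not given in the sources used here.

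*Tfrc*, the transferrin receptor (ENSMUSG00000022797, plus strand of chromosome 16, at 32427738 to 32451612 of GRCm39), varied least, from 36.5 to 71.9 CPM. In wild type males 39.9, 51.9 and 57.5 CPM in controls stood below 62.6, 71.9 and 62.4 after succinate, without overlap (0.39, SE 0.19, interval -0.05 to 0.83, edgeR adjusted p = 0.947), and without control replicate 1, again the library with the most 18S, the difference was 0.29. Markers of the proximal small intestine did not overlap here either (487 to 548 and 247 to 447 CPM), and their part in the *Tfrc* values was not tested. In wild type females the difference had the other sign (-0.45, SE 0.25, edgeR adjusted p = 0.702), with overlap. The succinate average was 0.04 with an interval of -0.24 to 0.31, and the genotype average -0.06 with an interval of -0.33 to 0.21, so that changes of 2-fold lie outside both intervals.

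**Figure D4:**
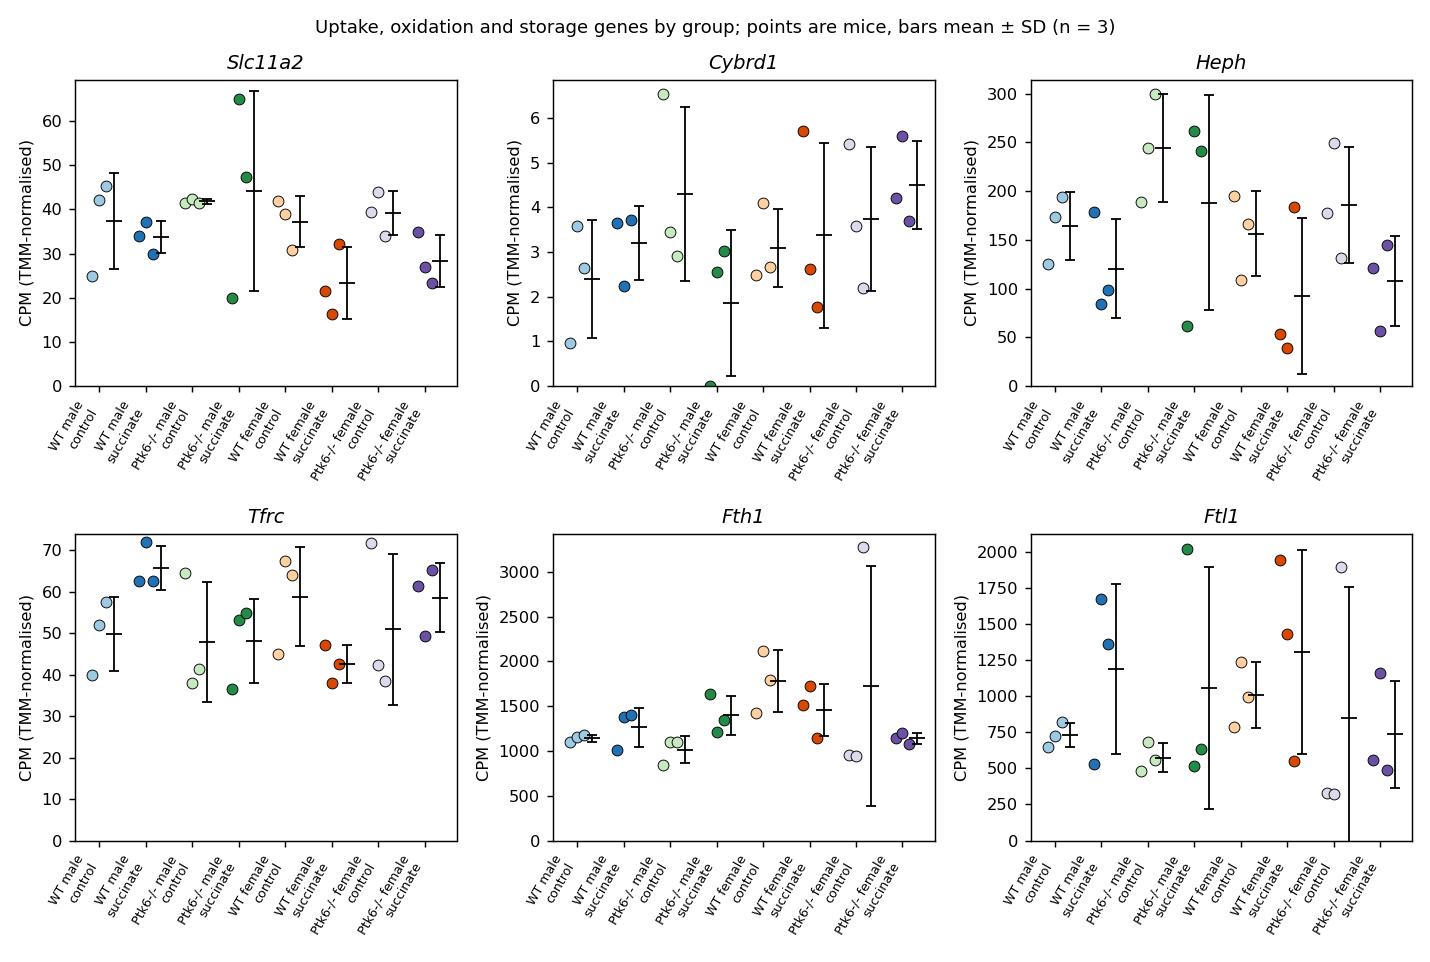
CPM of *Slc11a2*, *Cybrd1*, *Heph*, *Tfrc*, *Fth1* and *Ftl1* in the 8 groups; points are the 3 libraries of a group and bars the mean ± SD (the lower bar of *Ftl1* in *Ptk6*-/- female controls stops at the axis). Groups overlap for most genes, *Tfrc* stays between 36.5 and 71.9 CPM, and *Ptk6*-/- female control replicate 3 lies far above its group for both ferritin genes.

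Both ferritin genes held libraries far from the rest of their group. *Fth1*, the heavy chain with ferroxidase activity (ENSMUSG00000024661, plus strand of chromosome 19, at 9957962 to 9962456 of GRCm39), did not overlap in *Ptk6*-/- males, where 842, 1099 and 1104 CPM in controls stood below 1640, 1213 and 1347 after succinate (0.51, SE 0.31, edgeR adjusted p = 0.62). The highest of these is the smallest library, without which the difference was 0.31 (edgeR adjusted p = 0.55). The summed enterocyte markers given above for these males did not overlap either, although the median log2 difference of those markers was -0.17. In *Ptk6*-/- female controls it had 957, 945 and 3278 CPM. *Ftl1*, the light chain (ENSMUSG00000050708, minus strand of chromosome 7, at 45107368 to 45109308 of GRCm39), had 327, 322 and 1898 CPM in the same libraries, so that replicate 3 was high for both chains. That library was also the highest of its group in enterocyte markers (55604 CPM against 21021 and 27230), macrophage markers (929 against 438 and 302) and erythrocyte markers (241 against 46.9 and 36.6), and its length slope was -0.10 against 0.07 and 0.13. Their part in the ferritin values was not tested. Wild type female controls had 786, 1240 and 995 CPM of *Ftl1*, and the genotype difference in control females was -0.23 (SE 0.69, interval -1.83 to 1.36, edgeR adjusted p = 0.919). Without *Ptk6*-/- female control replicate 3 it was -1.58 and called (edgeR adjusted p = 0.0275), in a fit that then called 1808 genes instead of 3. Voom with sample weights also called it (-1.41, adjusted p = 0.0202), as 1 of 1972 genes that it called there. In control males the genotype difference of *Ftl1* was -0.37 (SE 0.17, interval -0.76 to 0.03, edgeR adjusted p = 0.234), from 484, 683 and 555 CPM in *Ptk6*-/- mice and 649, 727 and 819 in wild type mice, which overlap. It was -0.06 with the length offset (adjusted p = 0.883) and 0.07 with limma on log2(FPKM + 1) (adjusted p = 0.971), and these groups differ in length slope without overlap, at -0.06 to -0.01 and 0.09 to 0.15.

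After succinate, *Ftl1* was split within groups. Wild type males had 533, 1672 and 1362 CPM, wild type females 1943, 1432 and 549, *Ptk6*-/- males 2019, 518 and 632 and *Ptk6*-/- females 558, 1161 and 489. In each treated group at least 1 mouse was more than 2-fold above another. The high value in *Ptk6*-/- males was that of the smallest library, and without it the log2 difference of *Ftl1* went from 0.97 (SE 0.58, edgeR adjusted p = 0.62) to -0.02 (edgeR adjusted p = 0.973). Without wild type male succinate replicate 1 the succinate difference in wild type males was called (1.01, edgeR adjusted p = 0.0116, with 1077 genes called, against 0.69, SE 0.41 and adjusted p = 0.947 with it). With all libraries kept, voom gave 0.92 (adjusted p = 0.0104), under 2-fold. The succinate averages were 0.44 (SE 0.32, interval -0.22 to 1.10, edgeR adjusted p = 0.508) for *Ftl1* (0.54 with an adjusted p of 0.0422 by voom) and -0.07 (SE 0.18, interval -0.45 to 0.31, edgeR adjusted p = 0.901) for *Fth1*. The ratio of light to heavy chain by FPKM ran from 0.883 to 3.33 and exceeded 1 in 22 of 24 libraries, and both exceptions were *Ptk6*-/- female controls. It lay between 1.301 and 1.80 in the controls of the other 3 sex and genotype strata. The highest library of each treated group was between 2.50 and 3.33 and the lowest between 1.11 and 1.37. Each of those highest libraries had the lowest length slope of its group, between -0.14 and -0.10. The 2 libraries under 1 had slopes of 0.07 and 0.13, and *Ptk6*-/- male controls, at 0.09 to 0.15, had ratios of 1.301 to 1.61. The part of the length slope in the ratio was not tested. Processed copies could share reads with these genes. *Ftl1-ps1* took 0.917% and *Ftl2-ps* 0.351% of all counts on genes named as ferritin, against 59.7% for *Fth1* and 39.1% for *Ftl1*, and a further gene, ENSMUSG00002076377, lies within *Ftl1* on the same strand with up to 1119 counts.

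By edgeR as run here no member passed the adjusted threshold for sex, genotype or their interaction. Averaged over genotype and treatment, *Slc40a1* was 0.35 higher in males (SE 0.16, edgeR unadjusted p = 0.0386, adjusted p = 0.301), *Slc11a2* 0.32 higher (SE 0.16, adjusted p = 0.343) and *Fth1* 0.33 lower (log2 difference -0.33, SE 0.18, adjusted p = 0.395). The genotype averages lay between -0.40 for *Ftl1* and 0.42 for *Heph*, with edgeR adjusted p of at least 0.469. The voom fit put 5 of the 8 under 0.05, with *Ftl1* at -1.03 (adjusted p = 0.000396), *Heph* at 0.75 (0.00196), *Slc11a2* at 0.38 (0.0138), *Fth1* at -0.34 (0.0138) and *Slc40a1* at 0.39 (0.0177). Only *Ftl1* of these also reached 2-fold and was called, where voom called 1539 genes against 4 by edgeR. The share of all genes that voom put under 0.05 without a fold threshold was not counted, so the 5 have no like background. The voom fit also gave the sex average of *Slc11a2* an adjusted p of 0.0444 (0.40). The sex by genotype interaction in controls had a median of 0.07 over the 8 members and adjusted p of 0.999 for each.

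Some members varied together over the libraries. Of 28 pairs, 6 had a Benjamini-Hochberg adjusted permutation p under 0.05 for both Pearson's r and Spearman's rho of log2 CPM over the 24 libraries, 5 positive and 1 negative. The ferritin chains were correlated (r = 0.77, rho = 0.85, permutation p = 1e-05 for either, the smallest that 100000 permutations can give, adjusted p = 0.00014 for either). So were the importer *Slc11a2* and *Heph* (r = 0.82, rho = 0.82, with the same permutation and adjusted p). *Slc11a2* and *Slc40a1* gave r = 0.75 (permutation p = 3e-05, adjusted p = 0.00021) and rho = 0.68 (permutation p = 0.00034, adjusted p = 0.00238). *Slc40a1* and *Heph* gave r = 0.63 (permutation p = 0.00125, adjusted p = 0.00583) and rho = 0.64 (permutation p = 0.0011, adjusted p = 0.00616), and *Cybrd1* and *Hmox1* r = 0.62 (permutation p = 0.00023, adjusted p = 0.00129) and rho = 0.55 (permutation p = 0.00586, adjusted p = 0.0273). Both genes of the last pair also followed the library total (*Cybrd1* r = 0.90 and rho = 0.41, *Hmox1* r = 0.59 and rho = 0.58), and the smallest library held 0 and 5 of their counts. Without the 2 libraries farthest from the median of the first gene, r was 0.80, 0.75, 0.84, 0.64 and 0.50 for these 5 pairs. The negative pair was *Heph* and *Ftl1*, with r = -0.75 (permutation p = 3e-05, adjusted p = 0.00021) and rho = -0.69 (permutation p = 0.00029, adjusted p = 0.00238). Without the 2 libraries farthest from the *Heph* median r was -0.70, on deviations from group means -0.80, and without the 3 libraries that stood apart -0.72. On deviations from group means the 5 positive pairs gave r of 0.86, 0.73, 0.66, 0.40 and 0.66 in the order above, the 0.40 being that of *Slc40a1* with *Heph*.

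The representation of long genes and the levels of cell markers moved with these levels. The marker values that follow are a description over the 24 libraries, which differ in depth and length slope. Log2 levels of smooth muscle markers had r of -0.70 with *Heph*, -0.63 with *Slc11a2* and -0.61 with *Slc40a1*. Heart muscle markers had r of -0.71 with *Heph* and -0.66 with *Slc11a2*, and markers of the proximal small intestine 0.74 with *Heph*. Macrophage markers had r of -0.52 with *Heph* and 0.64 with *Ftl1*. Enterocyte markers had r of 0.74 with *Fth1* and 0.61 with *Ftl1*, and erythrocyte markers 0.62 and 0.75. With *Slc40a1*, *Slc11a2* and *Heph* the enterocyte markers had r of 0.09, 0.04 and -0.07. Their part in the correlations was not tested. Over the 24 libraries the length slope correlated with *Ftl1* (r = -0.84, rho = -0.86, permutation p = 1e-05 for either, adjusted p = 8e-05 over the 8 members), with *Fth1* (r = -0.65, permutation p = 0.00024, adjusted p = 0.00096, and rho = -0.74, permutation p = 5e-05, adjusted p = 0.0002) and with *Heph* (r = 0.67, permutation p = 0.00047, adjusted p = 0.00125, and rho = 0.73, permutation p = 9e-05, adjusted p = 0.00024). Without the 2 libraries of most extreme slope, r was -0.85, -0.67 and 0.63. *Ftl1* is among the shorter transcripts and *Heph* among the longer ones, at -1.52 and 1.00 on a log2 scale relative to the median gene, by the length that count over FPKM implies. The other members did not all follow length. *Fth1* was near the median gene at -0.15. *Hmox1* was short at -1.12 with r of 0.03, and *Slc40a1* was longer than *Heph* at 1.23 with r of 0.39. *Slc11a2* had 0.73 with r of 0.40, *Tfrc* 0.69 with r of 0.07 and *Cybrd1* 0.48 with r of 0.33. After regression of both on the slope, the correlation of *Heph* with *Ftl1* was -0.46, that of the ferritin chains 0.54, that of *Slc11a2* with *Heph* 0.81 and that of *Slc11a2* with *Slc40a1* 0.70.

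**Figure D5:**
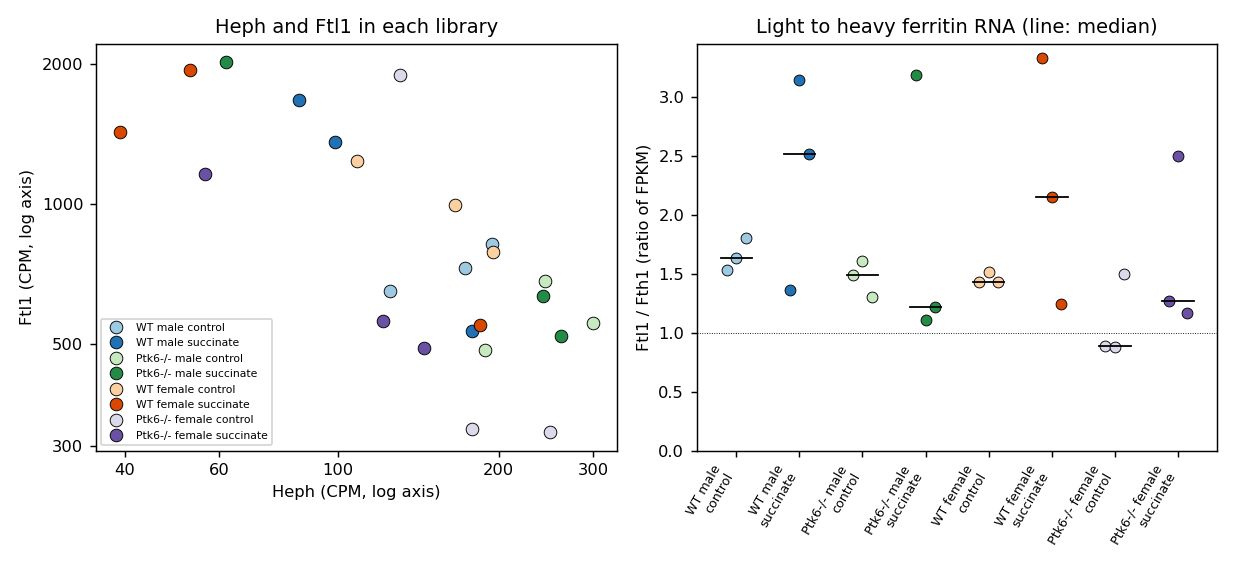
Left, *Ftl1* against *Heph* in CPM (log axes), 1 point per library, coloured by group; right, the ratio of *Ftl1* to *Fth1* FPKM by group, with the group median as a line. *Ftl1* falls as *Heph* rises (r = -0.75), and the ratio is above 1 in all libraries except 2 *Ptk6*-/- female controls.

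By Pearson's r of log2 CPM over the 24 libraries, among 10516 named genes of at least 1 mean FPKM, the RNAs most like each member were *Ifih1* (0.98) and *Clca4a* (0.98) for *Heph*, *Atox1*, a copper chaperone (0.97), and *Ndufaf8* (0.97) for *Ftl1*, and *Cideb* (0.94) and *Vps28* (0.93) for *Fth1*. They were *Pwp1* (0.95) and *Ttc30b* (0.95) for *Cybrd1*, *Rap2c* (0.92) and *Slc35f2* (0.91) for *Slc11a2*, and *Cd14*, a monocyte and macrophage receptor (0.85), and *Tnfsf10* (0.82) for *Slc40a1*. The least matched were *Hmox1*, with *Ptgs1* (0.80) and *Wdr82* (0.76), and *Tfrc*, with *Ugt2b35* (0.73) and *Cnot11* (0.72). These values come from the same libraries, which differ in depth and length slope, and are given as a description.

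Other genes of iron biology were read from 4 lists. Of 15 genes of iron sensing and systemic regulation, among them the hypoxia-inducible factors and the prolyl hydroxylases that mark them for degradation, 14 were tested between genotypes in control males and 1 was called. In that comparison 0.739% of 19218 genes were called, 813 had an edgeR adjusted p under 0.05 at any fold, and 25.2% an unadjusted p under 0.05. *Hif1a* was 1.31 higher in *Ptk6*-/- males (SE 0.16, edgeR adjusted p = 0.02). This call was lost without 4 of the 6 libraries, each in turn: wild type male control replicate 2 or 3 (adjusted p = 0.0803 and 0.0827) and *Ptk6*-/- male control replicate 2 or 3 (0.0612 and 0.1). It was also lost when all 24 libraries were fitted together (1.33, edgeR adjusted p = 0.93), with the replicate block (1.301, adjusted p = 0.0539) and with the block and the length offset (1.13, adjusted p = 0.0924). *Epas1*, which encodes HIF-2α, the factor known to drive *Slc11a2*, *Cybrd1* and *Slc40a1* transcription in enterocytes, differed by 0.90 (SE 0.13, edgeR adjusted p = 0.027), under 2-fold, and was called by voom (1.01, adjusted p = 0.00135) and without *Ptk6*-/- male control replicate 1 (1.01, edgeR adjusted p = 0.0188). In control females 0 of 13 were called, and the smallest p were those of *Vhl* (-0.80, SE 0.21, edgeR adjusted p = 0.367) and *Egln2* (-0.64, SE 0.21, edgeR adjusted p = 0.383).

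In the succinate average 1 of the 15 was called, where 0.728% of all genes were. *Egln3*, a prolyl hydroxylase that hypoxia-inducible factors themselves induce, rose by 1.47 (SE 0.22, edgeR adjusted p = 0.000793), and remained called under each alternative run and with each library left out. Its differences were 1.78 (SE 0.28, edgeR adjusted p = 0.207) in wild type females, 2.72 (SE 0.39, edgeR adjusted p = 0.0971) in *Ptk6*-/- females, where DESeq2 (adjusted p = 5.98e-09), limma on log2(FPKM + 1) (0.0226), voom (0.00701) and the fit of 24 libraries (0.00522) called it, 1.31 (SE 0.38, edgeR adjusted p = 0.947) in wild type males and 0.07 (SE 0.45, edgeR adjusted p = 0.958) in *Ptk6*-/- males. *Egln1* had 0.48 (SE 0.17, edgeR adjusted p = 0.186) in the average.

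Of 20 further genes of iron and heme transport, reduction and chaperoning, 18 or 19 of which were tested in each comparison, edgeR as run here called none in the 12 planned comparisons. *Steap2*, a metalloreductase, was called between genotypes in control females by voom (1.05, adjusted p = 0.0188) and without *Ptk6*-/- female control replicate 3 (1.02, edgeR adjusted p = 0.0442). The smallest p were those of *Ncoa4*, the ferritin autophagy receptor (0.45, SE 0.14, edgeR adjusted p = 0.0906), and *Slc39a14* (0.33, SE 0.12, edgeR adjusted p = 0.138) between genotypes in control males. For the succinate average they were *Abcg2* (-0.46, SE 0.15, edgeR adjusted p = 0.143) and *Slc39a14* (-0.45, SE 0.15, edgeR adjusted p = 0.16). Of 11 genes of heme synthesis and breakdown edgeR called none as run here. *Alad* was called between genotypes in control females by voom (-1.10, adjusted p = 0.0179) and without *Ptk6*-/- female control replicate 3 (-1.34, edgeR adjusted p = 0.0283). In control males *Blvra* and *Blvrb*, the biliverdin reductases that act after heme oxygenase, differed by -0.66 (SE 0.13, edgeR adjusted p = 0.0356) and -0.76 (SE 0.15, edgeR adjusted p = 0.0392), under 2-fold. Each was under 0.05 in 5 of 15 other settings, with values down to -0.20 and -0.26 by limma on log2(FPKM + 1) and adjusted p of up to 0.93. *Epas1*, *Bach1* and *Gclc* were each under 0.05 in 6 of the 15. As reported, 813 of the 19218 genes tested in control males had an edgeR adjusted p under 0.05. Of 9 genes of the NRF2 and BACH1 axis, which governs *Hmox1* and the ferritin genes, edgeR called none as run here. In control males *Bach1*, the heme-binding repressor, differed by 0.96 (SE 0.14, edgeR adjusted p = 0.023), just under 2-fold, and *Gclc* by 0.53 (SE 0.10, edgeR adjusted p = 0.037). *Bach1* was called by voom (1.05, adjusted p = 0.00158), by edgeR with no filter on low counts (1.00, adjusted p = 0.00963) and without *Ptk6*-/- male control replicate 1 (1.04, edgeR adjusted p = 0.0215), while the length offset gave 0.78 (adjusted p = 0.0585) and the fit of 24 libraries an adjusted p of 0.93. These control males differ in length slope without overlap, as given for *Ftl1*. Among the marker lists, edgeR called *Actc1* of heart muscle (3.62, SE 0.68, adjusted p = 0.00843) and *Actg2* of smooth muscle (1.12, SE 0.26, adjusted p = 0.0355) for the succinate average, and *Scgb1a1* of lung as higher in *Ptk6*-/- control females (adjusted p = 0.0211). The *Actc1* call was lost with limma on log2(FPKM + 1) (1.81, adjusted p = 0.265). *Actg2* was under 0.05 in only 14 of 33 other settings. Its call was lost without the 3 libraries that stood apart (1.09, adjusted p = 0.12) and with limma on log2(FPKM + 1) (1.06, adjusted p = 0.0545). Many single libraries, left out in turn, also ended it (edgeR adjusted p of 0.0562 to 0.0883). The *Scgb1a1* call was lost without any 1 of the 3 wild type controls (adjusted p of 0.0684 to 0.0915). It was also lost with the replicate block (0.204), the block with the length offset (0.146) and the fit of 24 libraries (0.567).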

How the data were processed

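The 24 samples are bulk RNA-seq libraries of mouse distal jejunum, and groups were taken from the sample labels. The authors deposited raw read counts per gene and FPKM values per gene, and the submitters' processing notes name the build GRCm39 and the tools FastQC and StringTie. The study's methods name trimming with Cutadapt, alignment with HISAT2 and assembly with StringTie. The program that made the counts is not given in the sources used here. FPKM served only to compare levels between genes and as an alternative test. Counts were normalised by TMM and tested with edgeR 4.0.16 (R 4.3.3) by its quasi-likelihood test, for genes that reached 10 counts in 3 or more libraries of the fit, with Benjamini-Hochberg adjustment over all genes tested. Each of the 6 comparisons of 2 groups was fitted on its own 6 libraries, interactions on 12 and averages on 24. A gene was called at an adjusted p under 0.05 and a fold of at least 2. Alternatives used DESeq2 1.42.0, limma 3.58.1 (voom, or log2(FPKM + 1) for genes of mean FPKM at least 0.5), other filters, an offset for gene length, a replicate block and leaving out each library. The scripts were tested on simulated data. Replicates are separate mice. Correlations used log2(CPM + 0.1) and 100000 permutations. All 8 members are named, and of the related lists every called gene or else the 2 with the smallest p in a comparison described. The members, the lists and 2 contrasts between the sexes were chosen with earlier results of these data known.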

Additional observations from a re-analysis of the deposited data

Results flagged for a closer look

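*Hmox1* stood out because its succinate difference had opposite signs in *Ptk6*-/- males and *Ptk6*-/- females, with every treated library below every control in males and above every control in females. The log2 differences were -1.13 (SE 0.34) and 1.296 (SE 0.40). A test of the difference between the sexes, chosen after these values were seen, gave -2.44 (SE 0.54) with an edgeR adjusted p of 0.283 and a DESeq2 adjusted p of 0.00452, so that whether it passed depended on the tool. DESeq2 called 180 genes in this contrast and edgeR 0. The male value includes the smallest library, in which *Hmox1* had 5 counts, and without that library the contrast was -2.25 (edgeR adjusted p = 0.289).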

How the results depend on the processing

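No member was called in any comparison as reported, and no called member value changed sign. Of 973 member values under another setting with no library left out, 4 were called and 80 differed in sign from the reported value, and of 1440 with 1 library left out, 3 were called and 87 differed in sign. The number of members called became 1 with DESeq2 for succinate in *Ptk6*-/- females (*Slc40a1*) and for the contrast of the sexes in *Ptk6*-/- mice (*Hmox1*), and 1 with voom for genotype in control females and for the genotype average (*Ftl1* in both). With 1 library left out it was 0 to 1 for genotype in control females, for succinate in wild type males and for succinate in wild type females, and 0 elsewhere. Counts over all genes depended strongly on the tool. They are given in this order: genotype in control males and females, succinate in wild type males, *Ptk6*-/- males, wild type females and *Ptk6*-/- females, the interaction of genotype with succinate in males and in females, sex by genotype, the averages for sex, genotype and succinate, sex by succinate, and sex by succinate in *Ptk6*-/- mice. As reported they were 142, 3, 0, 0, 0, 17, 0, 0, 0, 78, 4, 158, 16 and 0. DESeq2 called 311, 263, 47, 39, 258, 436, 65, 61, 19, 323, 60, 390, 207 and 180. Voom called 577, 1972, 1498, 16, 37 and 200 in the 6 comparisons of 2 groups, 2 for the interaction in males, 7 for sex by genotype, 301, 1539 and 798 for the averages, and 79 and 32 for the last 2. Limma on log2(FPKM + 1) called 126, 6, 1 and 33 for succinate in the 4 strata, 3 for sex by genotype, 2 and 70 for the genotype and succinate averages, and 28 and 41 for the last 2. With no filter on low counts there were 2 and 2 for succinate in wild type and *Ptk6*-/- males, 3 for the interaction in males, and 29 and 12 for the last 2. The length offset gave 48 and 5 for genotype in males and females, and 1 fit of all 24 libraries gave 1 and 1 there, 1 for succinate in wild type males and 87 and 132 in wild type and *Ptk6*-/- females. With no fold threshold genotype in control males gave 813. Without the 3 libraries that stood apart, an alternative chosen after seeing the data, there were 7 for the interaction in males, 1 and 91 for the genotype and succinate averages and 0 for sex by succinate. The replicate block gave 5 and 0 for genotype in males and females, 4 and 0 for succinate in wild type and *Ptk6*-/- females and 0 for sex by succinate. The block with the length offset gave 3, 0, 2, 0 and 7 for the same comparisons. Deviations of same-numbered libraries from their group means correlated between -0.32 and 0.15, and the block called no member. With 3 libraries per group these correlations cannot show whether same-numbered libraries shared a collection or batch. Leaving out 1 library gave 2 to 211 and 0 to 1808 for genotype in males and females, and 0 to 1077, 0 to 2, 0 to 597 and 0 to 29 for succinate in the 4 strata in the order above. It gave 0 to 5 for the interaction in males, 0 for that in females and for sex by genotype, 40 to 427, 2 to 89 and 88 to 539 for the averages, and 0 to 163 and 0 to 15 for the last 2. The causes were not tested. *Cybrd1* and *Hmox1* had the fewest counts, 0 and 5 in the smallest library.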
